A study of Rattus norvegicus with 4 samples.

Results

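The interferon-induced and major histocompatibility complex (MHC) genes were described on single-colour oligonucleotide arrays of the rat crista ampullaris, the sensory epithelium of the semicircular canals. The set holds every gene probe whose current rat symbol is on a written list of 39 interferon and antigen presentation genes, or begins with RT1-, the prefix of rat MHC genes. It comprised 60 probes of 48 genes, of 33849 gene probes and 12330 named genes on the array. Of the 39 listed genes, 32 had a named probe, with 42 probes between them, and 16 RT1 genes added 18 probes. No probe was named for the other 7 listed genes (Ifnar1, Parp9, Ifi44l, Xaf1, Samd9l, Oas1a and Ifih1). The list was chosen by reference to the layer differences in intensity on these same arrays, which were known when it was drawn up. All layer values of the members are therefore given as a description, and no p-value is printed for them. The calls given below rest on an adjusted p, so they too only describe the members.

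Type I interferons are secreted by cells that sense viral nucleic acid. Interferons act through surface receptors, JAK kinases and STAT proteins. Type I interferon assembles a transcription factor complex that contains STAT2 and IRF9 and binds interferon-stimulated response elements, while interferon gamma acts mainly on gamma-activated sites. The induced genes encode RNA sensors, the ubiquitin-like protein ISG15 and its protease, antiviral effectors, and the machinery that loads peptides onto MHC molecules: class I molecules display peptides from inside the cell to CD8 T cells, and class II molecules display peptides from endocytosed protein to CD4 T cells.

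There were 4 arrays in 2 groups. The supporting cell layer (2 arrays, written as the supporting layer) was the deeper tissue of supporting cell bodies on the basal lamina, taken by laser capture in a second pass. The hair cell layer (2 arrays, written as the hair layer) was the superficial tissue, taken first; per the labels it holds hair cells of types I and II, together with the supporting cell cytoplasm between them. The tissue was captured on morphology, and the labels give no strain, age, sex, genotype, treatment or number of animals for either layer. Whether arrays of the same layer had separate animals as their source is not in the labels, so the spread between them may be technical, and the number of arrays limits the precision. In such bulk tissue, fewer cells of a type and less RNA per cell cannot be told apart.

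Probes flagged by the scanner software as good or saturated are called detected here. The share of gene probes detected was 39.8% and 39.7% on the supporting layer arrays, against 48.8% and 45.6% on the hair layer arrays, and the median raw intensity was 12.1 and 12.0 in the supporting layer, against 26.5 and 17.0 in the hair layer. The arrays were brought to a common distribution by quantile normalization of the raw intensities, and layers were compared as the mean log2 intensity of the supporting layer minus that of the hair layer. A probe was tested when detected on at least 2 of the 4 arrays, and called when limma's adjusted p was under 0.05. Of 16483 tested probes, 67.4% were called, 33.5% higher in the supporting layer and 33.9% higher in the hair layer. Of the 10 tested probes of hair cell markers, 9 were called higher in the hair layer. Cdh23, the tip-link cadherin of hair bundles, was not detected in the supporting layer, and the hair layer exceeded it at least 15.7-fold, the highest bound among these probes. Espn and Myo7a were not detected there either. The tested probes of Atp2b2, Barhl1, Chrna9, Gfi1, Ocm, Otof and Pvalb were detected on both supporting layer arrays. They were 1.31-fold (Barhl1) to 7.36-fold (Chrna9) higher in the hair layer. Gfi1 read 2142 and 2038 in the supporting layer, against 2864.5 and 3279 in the hair layer. Hair cell marker signal was thus present in the supporting layer. The supporting cell markers divided, with 7 of 13 tested probes called higher in the supporting layer and 4 higher in the hair layer.

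The proximal promoters of the members are shown first because a short response element is what links many interferon-induced genes. RefSeq promoters (build GRCr8, 250 bases before to 50 bases after the start) were found for 40 of the 48 genes, all but Dhx58, Ifit1, Ifit2, Irf2, Isg15, Mx2, RT1-DMb and Usp18. The core of the interferon-stimulated response element, searched as GAAA, any 2 bases, GAAA on both strands (TTTC, any 2 bases, TTTC on the other) with overlapping matches counted, was in 18 of the 40 promoters (45.0%), against 3.92% of all 33469 promoters in the table. It was in 6 of 9 promoters of genes called higher in the supporting layer, 2 of 5 of genes called higher in the hair layer, 3 of 6 of genes tested and not called, and 7 of 20 of genes not tested. The letters of the gamma-activated site, TTCNNNGAA, which read the same on both strands, were in 6 of the 40 (15.0%), against 8.87% of all promoters. These matches describe letters in a window and are not evidence of binding. Below, the windows of the 8 called genes with a response element match are written 5′ to 3′ on the strand of the gene, with the match in capitals.
Bst2: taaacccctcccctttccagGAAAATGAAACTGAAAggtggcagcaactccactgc
Eif2ak2: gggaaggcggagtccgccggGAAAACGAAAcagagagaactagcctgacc
Irf7: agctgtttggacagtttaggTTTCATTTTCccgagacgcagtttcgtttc
Tap1: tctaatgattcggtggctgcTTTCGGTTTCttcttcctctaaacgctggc
Ifi27: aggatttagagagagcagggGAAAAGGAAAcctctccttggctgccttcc
B2m: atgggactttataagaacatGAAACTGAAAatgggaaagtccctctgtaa
Ifi44: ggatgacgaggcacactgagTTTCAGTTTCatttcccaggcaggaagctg
Parp14: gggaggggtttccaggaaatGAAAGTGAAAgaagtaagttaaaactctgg

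The first 6 of these genes were called higher in the supporting layer, and Ifi44 and Parp14 in the hair layer. The windows lie at chr16:18255063-18255118 on the minus strand for Bst2, chr6:21941118-21941167 on the plus strand for Eif2ak2, chr1:205800063-205800112 on the minus strand for Irf7 and chr20:4668635-4668684 on the minus strand for Tap1. Those of the other genes lie at chr6:128355123-128355172 (Ifi27, plus strand), chr3:129549160-129549209 (B2m, plus strand), chr2:243303837-243303886 (Ifi44, minus strand) and chr11:78408038-78408087 (Parp14, plus strand). Counted from the start of the gene, the first match began 16 bases upstream in Eif2ak2 and 26 bases upstream in Ifi44, the nearest of the 8, and 169 bases upstream in Ifi27, the farthest. Bst2 carried 2 overlapping matches in 1 run, and Ifi27 and Ifi44 each have another match outside the window shown. The windows were picked for holding a match, so nothing about the layers is read from them.

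Of the 60 probes, 30 (26 genes) were tested (48.7% of all gene probes were). Of these 30, 13 probes (12 genes) were called higher in the supporting layer, 43.3% against 33.5% of all tested probes, and 7 probes (7 genes) higher in the hair layer, 23.3% against 33.9%. The members did not move as a block. The antiviral genes Isg15, Usp18, Eif2ak2 and one probe of Mx2 and the class II gene RT1-Ba stood among the higher ones in the supporting layer, while Oasl, Stat2, Parp14, Ifngr1 and the class II gene RT1-DMb were higher in the hair layer. The median difference of the tested members was 0.60 on the log2 scale, against 0.01 for all tested probes. On all 4 arrays 14 member probes (23.3%) were detected, against 32.7% of all gene probes, and among these the median was 0.72, against 0.16 for all 11059. Because a probe could pass through 1 layer alone, and because the contrast chose the list, nothing is read from these counts and medians. The count for the hair layer depended on single arrays: it was 4 without hair layer replicate 1 and 3 without hair layer replicate 2. Over all tested probes the share called higher in the hair layer also fell, to 20.1% and 20.2%, against 33.9% with every array.

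**Figure D1:**
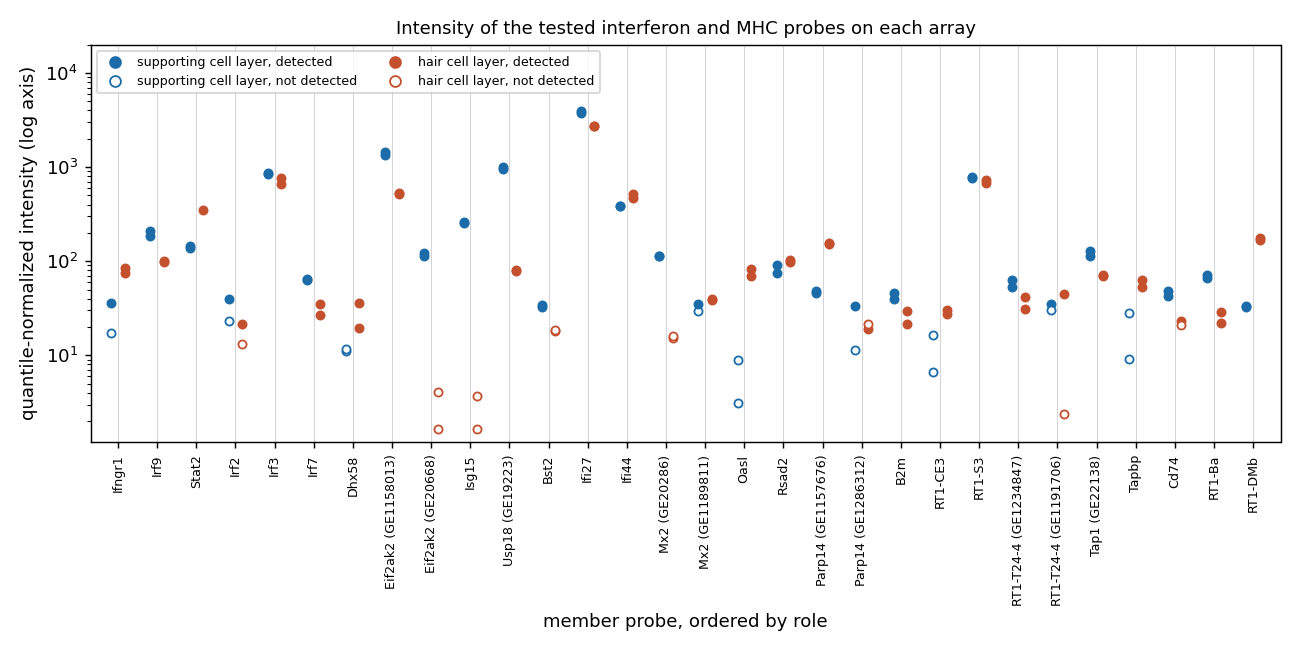
Quantile-normalized intensity (log axis) of the 30 tested member probes on each array, with the supporting layer left of the hair layer and open circles for spots not detected; values under the floor of 1.65 are drawn at the floor. Isg15 and the GE20668 probe of Eif2ak2 sit above 100 in the supporting layer and near the floor in the hair layer, while RT1-DMb, Oasl and Parp14 GE1157676 lie higher in the hair layer.

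Among receptors and signal transducers, the 3 measured genes divided. Ifngr1, the ligand-binding chain of the interferon gamma receptor, had normalized intensities of 36.0 and 17.1 (the lower one not detected) in the supporting layer, against 85.2 and 75.0 in the hair layer. Both hair layer arrays were higher, and the difference was -1.69 ± 0.43 (log2, limma's moderated SE, n = 2 arrays a layer). That SE draws on the spread of all tested probes as well as on the probe's own. All differences are given in this way, with fewer arrays where a spot was left out. Without hair layer replicate 1 (-1.66) or replicate 2 (-1.75) Ifngr1 was not called. Irf9, the DNA-binding part of the type I interferon complex, read 207 and 186 in the supporting layer and 99.3 and 99.1 in the hair layer. It was 1.98-fold higher in the supporting layer (0.98 ± 0.09). Stat2, which joins Irf9 in that complex, went the other way, with 145 and 138 in the supporting layer against 347 on hair layer replicate 2. Its spot on hair layer replicate 1 was flagged as contaminated and left out, so the difference of -1.30 ± 0.11 rests on 1 hair layer array. The raw intensity there was 546, against 402 on the other hair layer array and 114 and 105 in the supporting layer.

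Of the interferon regulatory factors other than Irf9, transcription factors that control interferon genes and their targets, only Irf7 was called. Irf7, which amplifies type I interferon production, read 64.5 and 63.3 in the supporting layer and 26.7 and 35.3 in the hair layer. It was detected on all 4 arrays and was 2.08-fold higher in the supporting layer (1.06 ± 0.17). Irf3, the constitutive factor activated by nucleic acid sensors, was among the brightest members, with 858 and 845 in the supporting layer and 665 and 770.2 in the hair layer. The supporting layer arrays were higher, but the difference of 0.25 ± 0.11 was not called. Irf2, a repressor that competes with Irf1, lay near background at 39.9 and 23.4 in the supporting layer and 13.3 and 21.7 in the hair layer (0.85 ± 0.41, not called). Irf8, a factor of myeloid cells, was detected on hair layer replicate 1 alone, at 15.9. It read 16.5 on hair layer replicate 2 and 8.99 and 11.4 in the supporting layer. Neither probe of Irf1 was detected on any array.

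The RNA sensor group held a gene with both probes in the same direction. Eif2ak2 encodes PKR, the kinase that halts translation when it binds double-stranded RNA, and its GE1158013 probe read 1432 and 1338 in the supporting layer, against 532 and 522 in the hair layer. The layers stood apart, 2.63-fold higher in the supporting layer (1.39 ± 0.08). Its GE20668 probe read 122 and 114 in the supporting layer and was not detected in the hair layer, where it read -0.96 and 4.11. This is at least 7.38-fold higher in the supporting layer, a bound set by the hair layer's detection limit. Such bounds, used wherever a probe was detected in 1 layer only, compare the brighter layer's mean with the lowest detected signal on each array of the dimmer layer, or with the probe's own reading there where that was higher. The lowest detected signals were 26.6 and 28.3 on the supporting layer arrays and 13.9 and 18.5 on the hair layer arrays. Dhx58, the helicase LGP2 that tunes the related RNA sensors, was not detected in the supporting layer, at 11.1 and 11.5, and was detected at 19.5 and 35.5 in the hair layer. The hair layer mean lay under the supporting layer's detection limits, so no fold is given, although the probe was called. Dhx58 lost its call without supporting layer replicate 1 (-1.23) or replicate 2 (-1.28), fitted values that give no size.

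Isg15 had the highest bound among the members. Isg15, a ubiquitin-like protein that is attached to other proteins after interferon exposure, read 261 and 257 in the supporting layer and was not detected in the hair layer, at 1.30 and 3.72. It was at least 16.2-fold higher in the supporting layer. The raw intensities, before any normalization, were 202 and 190.1 in the supporting layer and 2.04 and 3.78 in the hair layer, in the same direction. Usp18, the protease that removes ISG15 and that also dampens the type I receptor in mouse and human, read 1003 and 965 with its GE19223 probe in the supporting layer, against 81.1 and 78.6 in the hair layer. It was 12.3-fold higher in the supporting layer (3.62 ± 0.07), detected on all 4 arrays. Its GE1210278 probe was detected on supporting layer replicate 1 alone, with 34.8 and 30.1 in the supporting layer and 9.01 and 8.80 in the hair layer. That is at least 2.02-fold higher in the supporting layer, without a test.

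The antiviral effectors took up 16 probes of 13 genes, of which 7 probes were tested. Of these, 3 were called higher in the supporting layer, 2 higher in the hair layer and 2 not called. Over all tested probes 33.5% were called higher in the supporting layer and 33.9% in the hair layer, so nothing is read from this split. Ifi27, a small membrane protein strongly induced by type I interferon, was the brightest member at 3792 and 3981 in the supporting layer and 2719 and 2715 in the hair layer. The difference was small, 0.52 ± 0.07 and -0.02 in raw intensity, and Ifi27 was not called without hair layer replicate 1 (0.52) or replicate 2 (0.53). Bst2, the tetherin that holds budding virions at the cell surface, read 32.5 and 34.5 in the supporting layer and 18.1 and 18.7 in the hair layer (0.86 ± 0.08), where 1 of its spots was not detected. Mx2, an antiviral dynamin-like GTPase, had probes that disagreed. Its GE20286 probe read 114 on each supporting layer array and was not detected at 15.4 and 16.1 in the hair layer, at least 6.77-fold higher in the supporting layer. Its GE1189811 probe read 29.2 (not detected) and 35.4 in the supporting layer, against 38.9 and 39.4 in the hair layer, and was not called (-0.28 ± 0.13).

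The effectors higher in the hair layer were Oasl and Ifi44. Oasl, of the oligoadenylate synthetase family, was not detected in the supporting layer, at 8.82 and 3.12, and read 83.0 and 70.2 in the hair layer. The hair layer was thus at least 2.78-fold higher, and Oasl lost its call without hair layer replicate 1 (-3.71) or replicate 2 (-3.93), fitted values that give no size. Ifi44, an interferon-induced protein of the cytoplasm, read 387 and 384 in the supporting layer and 517 and 465 in the hair layer. Its difference of -0.35 ± 0.09 was the smallest of the called ones, and it was not called with any array left out, with values between -0.42 and -0.27. Rsad2, which encodes viperin, read 90.4 and 74.1 in the supporting layer and 98.4 and 102 in the hair layer (-0.30 ± 0.13, not called, but called at -0.44 without supporting layer replicate 1). Ifit3 and both probes of Ifit1, RNA-binding proteins that block viral translation, were detected on hair layer replicate 1 alone, at 34.6 for Ifit3 and at 19.5 and 16.6 for Ifit1. Mx1, Ifit2, Isg20, Gbp2 and Gbp5 were not detected on any array, nor was the chemokine Cxcl10.

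Parp14, a mono-ADP-ribosyltransferase, was the only measured PARP member and had 3 probes. The brightest, GE1157676, read 48.5 and 46.0 in the supporting layer, against 153 and 155 in the hair layer. It was 3.27-fold higher in the hair layer (-1.71 ± 0.07) and detected on all 4 arrays. GE1286312 read 11.3 (not detected) and 33.2 in the supporting layer and 19.2 and 21.5 (not detected) in the hair layer, so the layers overlapped (-0.07 ± 0.61). That value turned on the supporting layer arrays: it was 0.69 and called without replicate 1, and -0.90 and called without replicate 2. GE16848 was not detected on any array.

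Class I presentation was measured by 17 probes of 13 genes, and 7 probes were tested. Of these, 2 were called higher in the supporting layer and 5 not called, a split from which nothing is read. Over all tested probes 33.5% were called higher in the supporting layer and 33.9% in the hair layer. Tap1, with Tap2 the transporter that moves peptides into the endoplasmic reticulum, read 113 and 129 with its GE22138 probe in the supporting layer and 69.7 and 71.1 in the hair layer. It was 1.71-fold higher in the supporting layer (0.77 ± 0.10), and was not called without hair layer replicate 1 (0.77) or replicate 2 (0.78). B2m, the light chain of every class I molecule, read 46.0 and 39.4 in the supporting layer and 21.6 and 29.2 in the hair layer (0.76 ± 0.20, and -0.0018 in raw intensity). B2m was not called without supporting layer replicate 1 (0.63), supporting layer replicate 2 (0.84) or hair layer replicate 1 (0.58). RT1-S3, a class I heavy chain, was the brightest MHC member at 771 and 781 in the supporting layer and 726 and 683 in the hair layer. Its layers lay close together (0.14 ± 0.08, not called).

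The remaining class I probes lay nearer to background. RT1-T24-4 read 52.6 and 63.2 with its GE1234847 probe in the supporting layer and 30.9 and 41.9 in the hair layer (0.68 ± 0.21, not called). Its GE1191706 probe read 35.3 and 30.4 in the supporting layer, against 45.2 and 2.37 in the hair layer, whose arrays stood at opposite ends (1.66 ± 1.66). Without hair layer replicate 1 it was 3.75 and called, and without hair layer replicate 2 it was -0.47. RT1-CE3 was not detected in the supporting layer, at 6.69 and 16.3, and read 27.3 and 30.2 in the hair layer, at least 1.05-fold higher there and not called. Tapbp, the tapasin that holds empty class I molecules at the transporter, was likewise not detected in the supporting layer (9.05 and 27.9), against 62.5 and 53.0 in the hair layer. The hair layer was thus at least 2.10-fold higher, but Tapbp was not called. It was called higher in the hair layer without supporting layer replicate 1 (-1.02) or replicate 2 (-2.71), and so was RT1-CE3 (-0.82 or -2.17), fitted values that give no size. RT1-CE5, RT1-CE10, RT1-CE12, RT1-CE15, RT1-M3-1 and RT1-N3 were not detected on any array. Tap2, the partner of Tap1, was detected with 1 of its 2 probes on hair layer replicate 2 alone, at 23.3. That probe read 11.9 on hair layer replicate 1 and 8.90 and 24.5 in the supporting layer, so the layers overlapped. The lowest detected signals on the supporting layer arrays were higher, at 26.6 and 28.3. Some class I heavy chain genes of the rat are close copies of each other. Probe sequences were not available, so which gene a class I probe read is uncertain.

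Class II presentation held members at both ends. Cd74, the invariant chain that guides class II molecules to the endosome, read 42.8 and 48.3 in the supporting layer and 23.4 and 21.0 (the lower one not detected) in the hair layer, 2.05-fold higher in the supporting layer (1.04 ± 0.11). RT1-Ba, the alpha chain of the RT1-B molecule, read 71.4 and 66.6 in the supporting layer, against 22.0 and 29.0 in the hair layer. It was 2.73-fold higher in the supporting layer (1.45 ± 0.17). RT1-DMb, the beta chain of the DM molecule that exchanges the invariant chain fragment for peptide, went the other way, with 32.6 (not detected) and 33.3 in the supporting layer and 168 and 175 in the hair layer. It was 5.21-fold higher in the hair layer (-2.38 ± 0.07). The partner chains of these molecules, RT1-Bb and RT1-DMa, were not detected on any array, and neither were RT1-Da, RT1-Db1 and RT1-DOa. So no class II molecule was read with both of its chains.

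**Figure D2:**
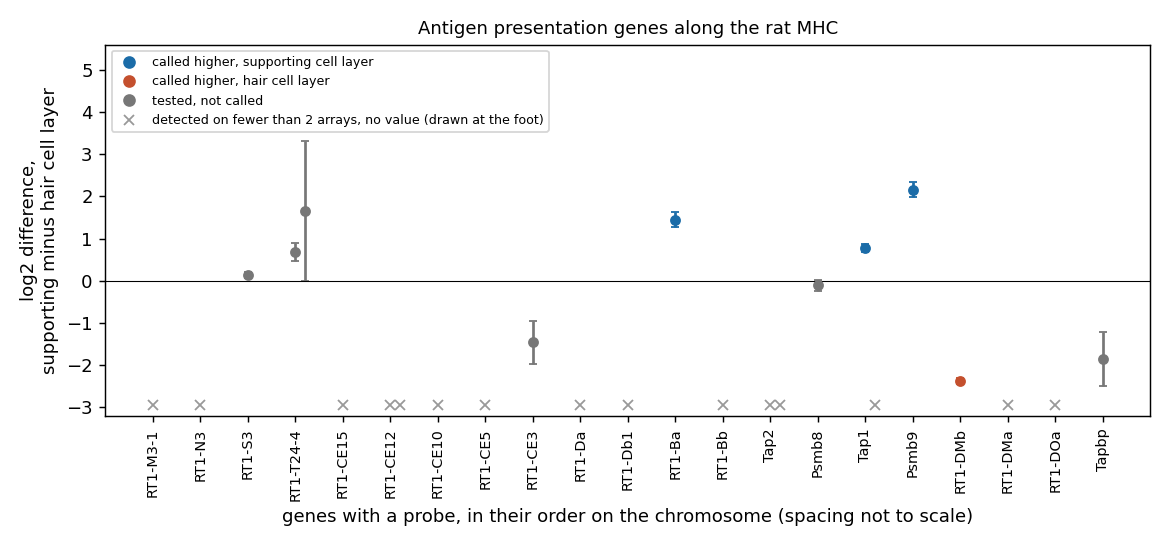
Log2 difference between the layers (supporting minus hair layer, bars 1 SE) of the antigen presentation genes on chromosome 20, in their RefSeq order with spacing not to scale; crosses at the foot mark probes detected on fewer than 2 arrays. Tap1 and Psmb9 lie above 0 next to RT1-DMb at -2.38, and most RT1 probes have no value.

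In the RefSeq annotation (GRCr8) Tap2, Psmb8, Tap1, Psmb9, RT1-DMb and RT1-DMa follow each other among the coding genes of chromosome 20, as the plot in chromosome order shows. Psmb9, an immunoproteasome subunit that is not on the list, read 156 and 157 in the supporting layer, against 30.4 and 40.6 in the hair layer (2.16 ± 0.18, called). It starts 457 bases from Tap1 and is transcribed away from it, with promoter windows that overlap by 44 bases. Both were higher in the supporting layer, while the adjoining RT1-DMb was higher in the hair layer and Psmb8, another immunoproteasome subunit, was not called (-0.11).

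**Figure D3:**
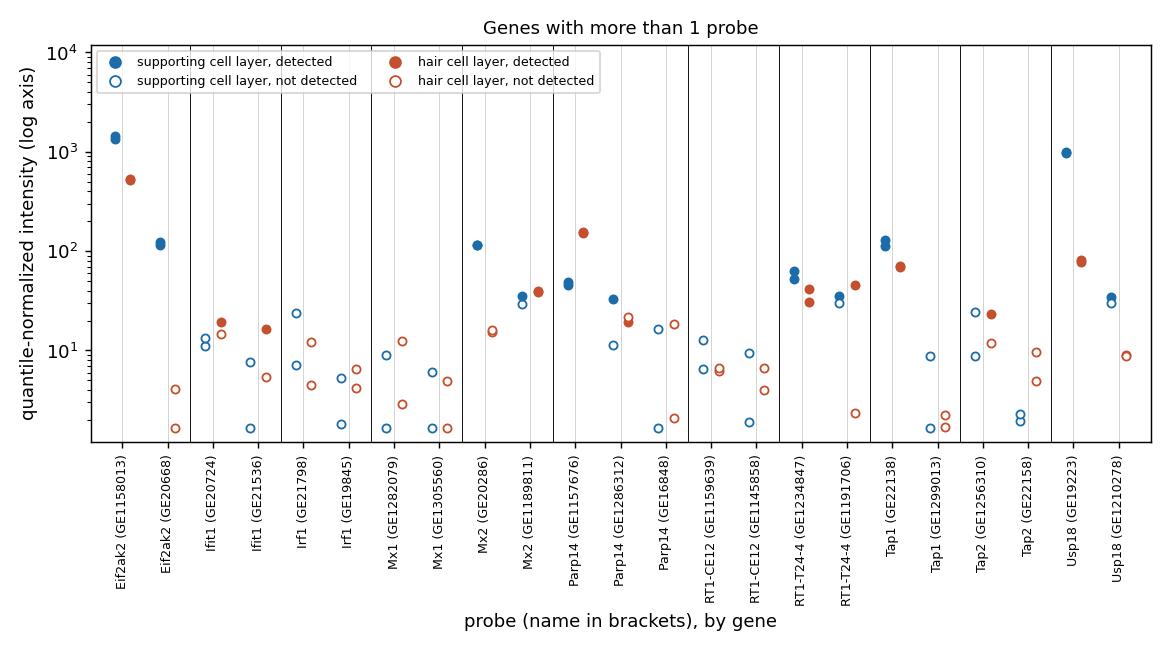
Quantile-normalized intensity (log axis) on each array of the 11 member genes with more than 1 probe, with the supporting layer left of the hair layer and open circles for spots not detected; values under the floor of 1.65 are drawn at the floor. Both Eif2ak2 probes and both Usp18 probes lie higher in the supporting layer, while the Mx2 probes lie in opposite orders.

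Probes of the same gene could disagree. Of the 11 genes with several probes, 4 had more than 1 tested probe. Eif2ak2 had both probes called higher in the supporting layer, Mx2 and Parp14 had 1 probe called and 1 not called, and RT1-T24-4 had none called. In Mx2 the tested probes differed in sign. Over the whole array, 43.0% of 1191 named genes with at least 2 tested probes had probes of both signs, and 16.2% had probes called in both directions. Tap1 had 1 probe detected on every array (GE22138) and 1 detected on none (GE1299013).

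The other 30 probes were not tested. The 24 probes of 21 genes that were not detected on any array read between -5.50 and 30.2, with a median of 5.41, and are 40.0% of the member probes, against 44.4% of all gene probes. A further 6 probes (both of Ifit1, and 1 each of Ifit3, Irf8, Tap2 and Usp18) were detected on 1 array. In all, 18 of the 48 genes had no detected probe. Low signal on these arrays does not separate an unexpressed gene from a probe that hybridised poorly.

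**Figure D4:**
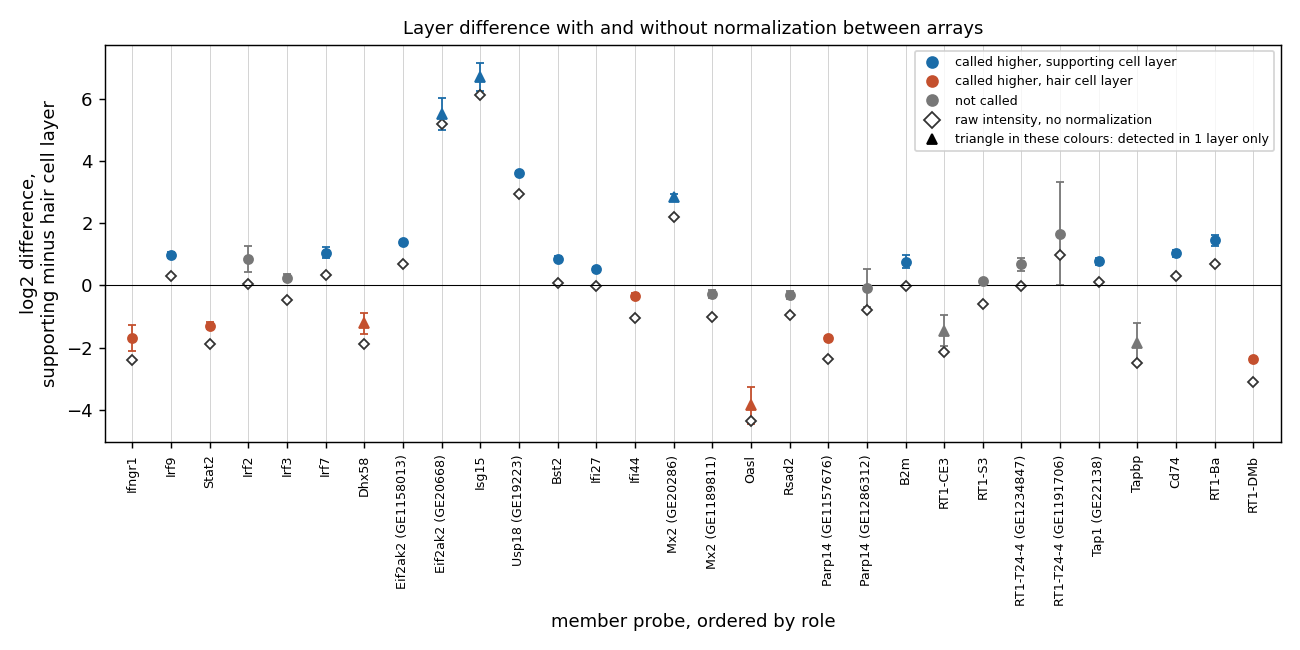
Log2 difference between the layers (supporting minus hair layer) of the 30 tested probes, with bars of 1 SE; open diamonds give the difference of raw intensities without normalization, and triangles mark probes detected in 1 layer only, whose height gives no size. Isg15, Usp18, Mx2 GE20286, RT1-Ba and both Eif2ak2 probes stay above 0 in raw intensity, while B2m, Ifi27 and RT1-T24-4 GE1234847 lie at about 0 and Irf3 and RT1-S3 below it.

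The direction of small differences depended on scaling between arrays. Normalization set the median difference of all tested probes to 0.01, whereas in raw intensity it was -0.67, with the scanner software's scaling 0.14 and with median scaling 0.10. In raw intensity 6 member probes were called higher in the supporting layer and 13 in the hair layer, against 13 and 7 after quantile normalization. Over all tested probes the raw shares were 14.4% and 53.7%, against 33.5% and 33.9%, and the shares over all probes thus moved in the same directions as the member counts. Both supporting layer arrays exceeded both hair layer arrays for 17 of the 30 tested probes after normalization (45.0% of all tested probes did so) and for 8 in raw intensity (20.6% of all). Both hair layer arrays were the higher ones for 11 probes (44.4% of all) and for 13 in raw intensity (66.8% of all). Of the called probes, Ifi27 and B2m changed sign in raw intensity, and of those not called Irf3 (-0.46), RT1-S3 (-0.59) and RT1-T24-4 GE1234847 (-0.0024) did. Bst2 (0.08), Tap1 GE22138 (0.12), Cd74 (0.31), Irf9 (0.31) and Irf7 (0.35) kept their sign in raw intensity but were not called. Calls that held in each of the 15 other settings that tested the probe were those of Isg15, Usp18 GE19223, both Eif2ak2 probes, Mx2 GE20286 and RT1-Ba for the supporting layer, and of Parp14 GE1157676 and RT1-DMb for the hair layer.

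The other genes of the pathway were read from a list of 93 genes, of which 73 had a probe and 53 probes were tested. Of these, 17 were called higher in the supporting layer, 15 higher in the hair layer and 21 not called, with a median of 0.05. Over all tested probes 33.5% were called higher in the supporting layer and 33.9% in the hair layer. Nothing about the pathway is read from the counts of this list or of its parts, here and below. Among 19 tested probes of other induced genes, 8 were called higher in the supporting layer and 3 in the hair layer. The RNA-editing enzyme Adar read 141 and 150.1 in the supporting layer and 48.2 and 52.5 in the hair layer (1.53 ± 0.09), and the membrane protein Ifitm2, which blocks viral entry, read 1213 and 1298 in the supporting layer, against 372 and 377 in the hair layer (1.74 ± 0.08). The related Ifitm1 lay the other way, at 323 and 299 in the supporting layer and 467 and 516 in the hair layer (-0.66 ± 0.10). Cxcl9, a T cell chemokine, read 96.4 and 103 in the supporting layer and 15.8 and 11.5 in the hair layer, the lower one not detected (2.89 ± 0.19, a fitted value that rests partly on a reading at background).

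In sensing, 2 of 8 tested probes were called higher in the supporting layer and 3 in the hair layer. Tlr3, the endosomal receptor of double-stranded RNA, differed by 0.72 ± 0.13, while the adaptor Traf3 read 72.4 and 72.1 in the supporting layer and 504 and 525 in the hair layer (-2.83 ± 0.07). The kinase Tbk1, which activates Irf3, was not detected in the supporting layer, and the hair layer exceeded it at least 6.51-fold. Of 20 tested antigen presentation probes outside the list, 4 were called higher in the supporting layer and 6 in the hair layer. The chaperone Calr was called higher in the hair layer with both tested probes (-1.36 ± 0.09 for GE1171859, and at least 5.06-fold for GE1257792). Of 6 tested probes of receptors, kinases and feedback genes, 3 were called in each direction, and the probes of Stat3 disagreed, at 0.37 ± 0.10 for GE13732 and at least 5.84-fold higher in the hair layer for GE19939.

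Markers of endothelial cells, pericytes and immune cells were read too. Over all tested probes 33.5% were called higher in the supporting layer and 33.9% in the hair layer. Nothing is read from the counts of these markers. Of 10 tested endothelial and pericyte probes, 7 were called higher in the supporting layer and 2, both of Vwf, in the hair layer. The summed normalized intensity of the 21 endothelial and pericyte probes with a value on every array, detected or not, was 1672 and 1674 in the supporting layer, against 722 and 756 in the hair layer. Cldn5, a called probe with no value on supporting layer replicate 2, is not in that sum, and Kdr and Pdgfrb were not detected. Of 11 tested immune probes, 3 were called higher in the supporting layer (Adgre1, Csf1r and Tyrobp) and 5 in the hair layer (Aif1, C1qa, C1qc, Cd68 and Ncf1). The summed signal of the 17 immune probes with a value on every array, detected or not, was 722 and 735 in the supporting layer and 1009 and 974 in the hair layer. The called Csf1r and Cd68 probes each lack a value on 1 supporting layer array and are not in that sum, and Ptprc, Cx3cr1, Cd163 and C1qb were not detected. The part of these cells in the interferon and MHC differences was not tested.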

How the data were processed

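Total RNA of laser-captured tissue was amplified into labelled cRNA per the labels' protocols, and the scanning software was CodeLink Expression Analysis 4.0.0.23520, per the file headers. The deposited raw intensity is corrected for local background by the authors' scanner software. Depth is not defined for arrays. The aligner and genome build are not given in the sources used here. The deposited series table was not used, since its column of supporting cell layer replicate 2 equalled the scanner values in 3 of 35125 rows as aligned and in 35035 after a shift of 2 rows (tolerance 1e-06).

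Control, contaminated and irregular spots were left out. Raw intensities were quantile-normalized, raised to a floor of 0.1 of the median, taken to log2 and fitted with lmFit and eBayes in limma 3.58.1 (R 4.3.3), two-sided, with Benjamini-Hochberg adjustment over 16483 probes. The limma fit was tested on simulated data in which every probe was detected, without a floor or missing spots. How it treats readings at background was therefore not tested. Probes were named from the platform annotation, with symbols updated through RefSeq (GRCr8). Each gene with a probe detected on at least 1 array is named with its values. The members, pathway lists and marker lists were chosen with earlier results of these data known. Alternatives changed the normalization, filter, floor, background correction, variance model, replicate block and arrays; raw intensity was added after seeing the data.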

Additional observations from a re-analysis of the deposited data

How the results depend on the processing

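Over 15 settings, the count of members called higher in the supporting layer stayed between 9 and 15, except in raw intensity, where it was 6. It was 11 to 13 with 1 array left out. The count for the hair layer was 7 of 30 tested members and 3 of 60 with no filter on dim probes. It was 2 of 14 among probes detected on all 4 arrays and 13 of 30 in raw intensity. The hair layer shares of all tested probes were 33.9%, 9.98%, 32.5% and 53.7% in the same order. The supporting layer shares were 33.5%, 9.68%, 43.7% and 14.4%, and nothing about the members is read from these counts. Raw intensity turned the sign of Ifi27 (-0.0214), B2m (-0.0018), Irf3 (-0.4616) and RT1-S3 (-0.5862), and Parp14 GE1286312 was 0.6925 without supporting layer replicate 1 and -0.9047 without replicate 2. Tapbp and RT1-CE3, not called here, were called higher in the hair layer in 8 and 7 settings. Over all probes, 11112 were called; the scanner software's normalized intensity gave 6871, no filter 6654, and leaving out 1 array 7215 to 9994. With the replicate number as a block, 13 of 30 tested members were called higher in the supporting layer and 4 in the hair layer. Of all probes 8702 were called, 25.9% of those tested higher in the supporting layer and 26.9% in the hair layer. The arrays numbered 1 did not deviate together after normalization (r = -0.00223 over 15984 probes). With 2 arrays a layer, this cannot show whether arrays of the same number shared an animal or pool, which the labels do not give. Of 20 called member probes, 8 held in every setting that tested them, and 7 lost their call in at least 1 setting that left out an array. A fit with the slide as a block was not run, since each slide held 1 array. Apart from the filter, which changes how many probes are tested, and the left-out arrays, the cause of these changes was not tested. Signal limits the set: 30 of the 60 probes were too dim to test, and a probe at background has only a bound.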

Other observations

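Probes beside the set were read as well. The platform's Samd9l probes carry the current symbol Samd9l1 and so are not members. One of them, GE1152228, read 312 and 296 in the supporting layer, against 29.4 and 25.4 in the hair layer. The difference was 3.47 ± 0.11 (log2, limma's moderated SE, n = 2 arrays a layer, called by limma). The other, GE1208933, was not detected on any array. A further 3 probes are annotated to several RT1 genes at once and were not named. GE1229973 read 58.0 and 52.2 in the supporting layer and 42.2 on hair layer replicate 2, with the other spot flagged as contaminated (0.38 ± 0.13, not called). GE1280096 was detected on supporting layer replicate 2 alone, at 66.8, against 1.71 on the other supporting layer array and -0.21 and -3.18 in the hair layer. GE1124806 was not detected on any array.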
